A study of Mus musculus with 4 samples.

Results

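Gzma and Ccl5 high cells were examined among sorted iNKT cells of the thymus, the invariant natural killer T cells, which use a restricted T cell receptor to bind lipids on CD1d. Thymocytes of young adult mice (age 6 to 8 weeks) were passed over magnetic beads and a cell sorter for CD3 and CD1d tetramer, and single-cell 3′ libraries were made. Replicates 1 and 2 were deposited for the wild type (WT) and for a genotype labelled ACC1 knockout (ACC1 KO). The product of Acaca, ACC1, carboxylates acetyl-CoA, and the series title concerns its part in keeping these cells alive. The labels give no strain, no Cre driver, no deleted exon and no word on whether each library came from a separate mouse, so a p-value here measures the spread between libraries only.

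Members were chosen by measured counts: a cell was one with at least 2 unique molecular identifiers (UMIs, counted molecules) of Gzma and at least 5 of Ccl5, provided that it passed quality filters and a set of detection limits. The quality filters asked for 1000 UMIs, 500 genes and under 10% mitochondrial UMIs. The limits left out cells with any UMI of Cd79a or Rag1, with over 2 of 4 interferon-induced genes, over 2 of 6 mitosis genes or over 1 of 6 Ly49 receptor genes (Klra1, Klra5, Klra6, Klra7, Klra9 and Klra10). Of 30167 cells that passed the quality filters, 15296 were within the limits and 2172 were members. They numbered 120 in WT 1, 534 in WT 2, 477 in ACC1 KO 1 and 1041 in ACC1 KO 2. No barcode of a member occurred in more than 1 library, against 101 barcodes over all cells kept. Their levels of Gzma and Ccl5, and of every other gene against the remaining cells, follow from this choice and are given as a description.

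iNKT1 cells are the interferon-gamma producing branch of iNKT cells, set by the transcription factor T-bet, and most of them stay in the thymus as resident cells. Granzyme A is a serine protease of cytotoxic granules, and CCL5 is a chemokine that resting memory-like lymphocytes keep as a ready transcript. ACC1 supplies the malonyl-CoA from which palmitate is built, palmitate is then elongated and desaturated, and the SREBP and LXR transcription factors match the genes of fatty acid and cholesterol synthesis to the lipids a cell holds.

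UMIs were summed over the members of each library, and levels are CPM, each gene's UMIs scaled so that every sum has the same total. Values of the 4 libraries are given in the order WT 1, WT 2, ACC1 KO 1 and ACC1 KO 2. The sums held 616812, 3486831, 2441272 and 8066292 UMIs, with medians of 4726, 6179, 4560 and 7133 UMIs per cell, so that the libraries numbered 2 were deeper in both genotypes. Libraries numbered 1 carried Y-linked transcripts (Ddx3y at 76.2 and 75.0 CPM) and those numbered 2 carried Xist (592 and 582 CPM), so sex, depth and replicate number cannot be told apart here. Acaca itself stood at 32.4, 27.0, 43.0 and 56.8 CPM in the members, higher and not lower under the ACC1 KO label. The deleted part of Acaca is not given in the sources used here, and a 3′ tag outside it would check nothing, so ACC1 KO below stands for the libraries so labelled.

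Members were set beside comparator cells, which passed the same filters and limits, had at most 1 UMI of Gzma and showed at least 3 of 6 iNKT1 genes (Tbx21, Il2rb, Klrb1c, Klrd1, Nkg7 and Cxcr3). There were 2233, 3192, 2658 and 2469 comparator cells, with median depths of 4558, 5952, 4350 and 7025 UMIs, close to those of the members. The same iNKT1 limit was met by 95.8, 96.4, 97.7 and 97.1% of the members. The summed level of the 6 iNKT1 genes was 2485 to 3416 CPM in the members and 2222 to 3088 CPM in the comparator cells.

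Among the 6 markers given for these cells, Gzma stood at 2375, 2881, 1917 and 2379 CPM against 6.63 to 16.6 CPM in comparator cells, and Ccl5 at 7613, 6513, 5813 and 4631 CPM against 1078 to 1801 CPM. Both are the genes of the gate, Gzma at chr13:113093825-113100981 and Ccl5 at chr11:83525778-83530518 (GRCm38, GENCODE vM21). Ifitm2, an interferon-induced membrane protein that restricts virus entry, stood at 323, 388, 538 and 891 CPM in members and 39.6, 130, 174 and 364 CPM in comparator cells. Each member sum was above the comparator sum of its own library, and the ACC1 KO libraries were high in both classes. Klrc1, which encodes the NKG2A chain of an inhibitory receptor for a nonclassical MHC molecule, stood at 156, 119, 212 and 99.2 CPM against 86.4, 50.1, 127 and 51.5 CPM. Klf2, a factor of quiescence and of exit from the thymus, stood at 666, 560, 813 and 546 CPM against 288, 353, 561 and 431 CPM. Its ratio fell short of 1.5-fold in ACC1 KO 1 and ACC1 KO 2. Hopx, a small homeodomain protein of effector and memory T cells, differed little, at 285, 308, 336 and 306 CPM against 217, 249, 268 and 249 CPM. Ifitm2 and Klrc1 were thus higher in members in every library, while Hopx marked members and comparator cells nearly alike. The cells and their markers were chosen with earlier results of these data known. These levels therefore describe the label of Gzma and Ccl5 high iNKT1 cells and do not check it.

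**Figure D1:**
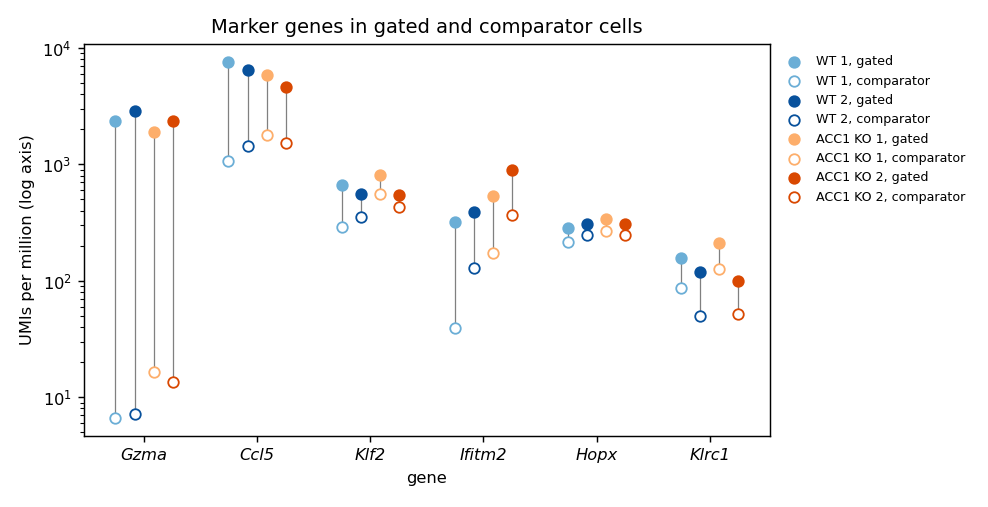
Levels of the 6 marker genes in CPM (log axis), 1 pair of points per library, filled for members and open for comparator cells of the same library. Gzma and Ccl5 chose the members. Ifitm2 is separated in every library, and Hopx pairs lie close together, such as 285 against 217 in WT 1.

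Markers of other cell types were read in the same sums. T cell receptor and CD3 genes summed to 4356 to 5463 CPM in members and 4625 to 6375 CPM in comparator cells. Of 8 natural killer cell markers, 3 were under 1 CPM, Eomes and Cma1 among them at 0 UMIs, and the list summed to 470, 507, 351 and 256 CPM against 128 to 199.5 CPM in comparator cells, of which Fcer1g, the signalling chain shared by several Fc and NK receptors, made 373, 364, 308 and 178 CPM. The 4 gamma delta T cell markers summed to 299.9, 277, 186 and 139 CPM against 275, 249, 141 and 119.7 CPM, with Trdc, the constant segment of the delta chain, at 0 UMIs in members. The 7 B cell markers summed to 84.0 to 108 CPM against 90.5 to 103 CPM, and the 8 double-positive thymocyte markers to 17.8 to 43.8 CPM against 67.6 to 93.0 CPM. Rag1, Rag2 and Cd79a were at 0 UMIs in the members, where Rag1 and Cd79a had been limits. The 2 CD8 chains summed to at most 4.86 CPM, and erythroid and platelet genes to at most 1.62 CPM. Fcer1g is also in the list of 8 myeloid markers, which summed to 289 to 496 CPM in members and 179.9 to 259.8 CPM in comparator cells. The natural killer, gamma delta and myeloid sums were higher in members in each library, and the part of such cells in the values below was not tested.

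Free RNA was gauged in cells that should not carry the gate genes together. None of 506 B lineage cells met the limits on Gzma and Ccl5, which allows a share of up to 0.593%, and 2 of 365 co-sorted double-positive thymocytes did, 0.548%. The double-positive cells were shallower, with a median of 2683 UMIs against 6290 in the members. Gzma alone reached 2 UMIs in 4.20, 3.64, 8.70 and 9.21% of the double-positive cells. In B lineage cells, with a median of 4087 UMIs, it did so in 0 of 345, 0 of 12, 0 of 110 and 1 of 39, 0.198% over all. In double-positive cells both ACC1 KO shares lay above both WT shares, 2.07 times as high within number 1 and 2.53 within number 2. The two-sided exact permutation test gave p = 0.3333, the smallest it can give here. Counting intervals of the double-positive shares overlapped between genotypes (1.38 to 9.53% in WT 1 and 4.25 to 15.4% in ACC1 KO 1). The part of free Gzma RNA in the shares of members below was not tested. Just inside the limits lay 249 members with exactly 2 UMIs of Gzma and 32 with exactly 5 of Ccl5. Just outside lay 435 cells with 1 UMI of Gzma and enough Ccl5, and 47 cells with 4 UMIs of Ccl5 and enough Gzma. Members had medians of 7, 11, 7 and 12 UMIs of Gzma and 34, 37, 26 and 29 UMIs of Ccl5, and 1108 of them held 10 or more of Gzma.

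Members made a larger share of the cells within the limits in ACC1 KO than in WT at the same replicate number, but the genotypes overlapped. The share was 4.25% in WT 1 (95% Clopper-Pearson interval 3.53 to 5.06), 12.6% in WT 2 (11.7 to 13.7), 12.2% in ACC1 KO 1 (11.2 to 13.3) and 24.0% in ACC1 KO 2 (22.7 to 25.3). WT 2 lay just above ACC1 KO 1. The means were 8.45% ± 5.94 (SD, n = 2) in WT and 18.1% ± 8.34 (SD, n = 2) in ACC1 KO, and the two-sided exact permutation test gave p = 0.6667, where 2 libraries against 2 cannot go below 0.3333. Within number 1 the share was 2.87 times as high in ACC1 KO, and within number 2 it was 1.90 times as high. Intervals cover counting error only.

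Since the gate counts UMIs, every cell was also thinned to 2000 UMIs before the limits were applied. The share was then 3.04, 8.89, 8.05 and 14.0% of the cells within the limits, with ratios of 2.65 and 1.58 at numbers 1 and 2. As a share of all cells kept, members made 2.20, 5.40, 7.61 and 12.2%, and here the genotypes were apart (exact permutation p = 0.3333, the smallest possible). After thinning these shares were 2.01, 5.81, 5.95 and 10.4%, which separated ACC1 KO 1 from WT 2 by less than their intervals (5.36 to 6.29 in WT 2). This denominator includes the Ly49-expressing cells that the gate leaves out. Cells with over 1 Ly49 gene made 34.1, 51.5, 26.7 and 39.3% of all cells kept. With those cells admitted to gate and denominator, the share was 6.34, 16.2, 14.1 and 26.9%, again with WT 2 above ACC1 KO 1. Cells with over 1 Ly49 gene that kept to the other limits reached the Gzma and Ccl5 counts in 9.68, 19.4, 19.0 and 31.2%. In each library that was more often than among the cells within the limits, so these counts are not particular to the members.

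**Figure D2:**
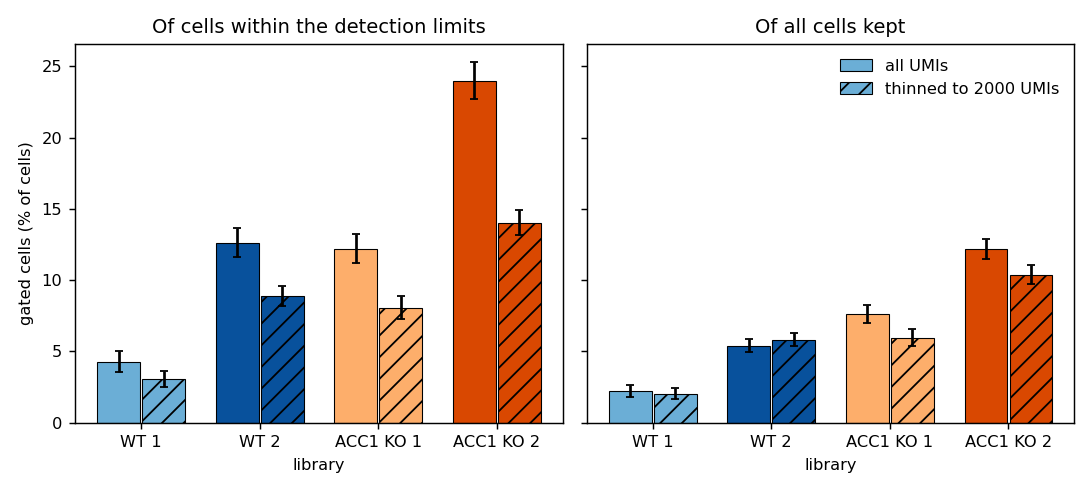
Members as a percentage of the cells within the detection limits (left) and of all cells kept (right), per library, with 95% Clopper-Pearson intervals. Plain bars use all UMIs and hatched bars cells thinned to 2000 UMIs. Each ACC1 KO bar is above the WT bar of its number, while WT 2 (12.6%) and ACC1 KO 1 (12.2%) nearly coincide on the left.

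Members differed from comparator cells in a limited set of genes. Of 9405 genes with at least 5 CPM in the higher class, 120 (1.28%) differed by over 1.5-fold the same way in all 4 libraries, 56 of them higher in members (0.595%) and 64 lower (0.68%). With the cells thinned to 2000 UMIs the count was 116. Against comparator cells that also held 5 UMIs of Ccl5 it was 33, with 18 higher. The comparison has no test, since the gate chose the cells on their expression.

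The genes highest in members over comparator cells included membrane and signalling proteins. Ifitm3, a close relative of Ifitm2 in the same gene cluster, stood at 336, 413, 657 and 683 CPM against 85.6, 158, 247 and 296 CPM. Reads of Ifitm2 and Ifitm3 can be hard to assign between such similar genes. Nrp2, a semaphorin and VEGF co-receptor, stood at 29.2, 19.8, 21.3 and 38.9 CPM against 2.24, 3.86, 5.94 and 16.4 CPM. Gas7, a protein of the actin cytoskeleton, was at 82.7, 76.3, 56.5 and 64.7 CPM against 15.5 to 27.7 CPM. Plek (pleckstrin, a protein kinase C substrate of blood cells), Rap1gap2 (a Rap1 GTPase activator), Itsn1 and Snx9 (endocytosis scaffolds), Swap70 (an actin and Rac regulator), Stard10 (a lipid transfer protein) and Wdr95 had mean log2 ratios of 1.62, 1.49, 1.41, 1.54, 1.16, 1.41 and 1.29. Fcer1g had a mean log2 ratio of 1.28. Against comparator cells with Ccl5, Ifitm2, Ifitm3, Gas7, Fcer1g, Rap1gap2, Itsn1 and Swap70 stayed past 1.5-fold in every library, and Nrp2, Plek, Snx9, Stard10 and Wdr95 did not.

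Genes low in members included the factor PLZF and several genes of the iNKT2 list, the branch of iNKT cells that makes IL-4. The values below are against all comparator cells. Against comparator cells with Ccl5 the count of lower genes fell from 64 to 15, so not all of these differences hold there. Which of the genes below are among the 15 is not given here. The part of low Ccl5 in comparator cells was not tested. Zbtb16, which encodes PLZF, the factor that drives the innate program of iNKT cells, stood at 50.3, 63.4, 60.2 and 69.0 CPM against 158, 147, 129 and 161 CPM. Il4 stood at 29.2, 22.4, 32.8 and 27.6 CPM against 91.5, 67.1, 69.0 and 58.7 CPM. Izumo1r, which encodes folate receptor 4, stood at 1.62, 1.72, 13.9 and 3.60 CPM against 38.5 to 70.7 CPM, with ACC1 KO 1 far above the other members. Themis, a T cell receptor signalling protein of thymocytes, Rora, a nuclear receptor, Plac8 and Dpp4, which encodes the peptidase CD26, had mean log2 ratios of -1.79, -1.37, -2.23 and -2.01. Atp8a2, a phospholipid flippase, stood at 87.5, 41.0, 52.4 and 37.3 CPM against 200.3, 184, 127 and 104 CPM. Of 9 iNKT2 genes measured, 5 were lower in members by this rule and none was higher, with a median log2 ratio of -1.29 against -0.03 over all 9405 genes. The 12 genes plotted on the low side were picked for being lower in every library, so that agreement follows from the choice.

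**Figure D3:**
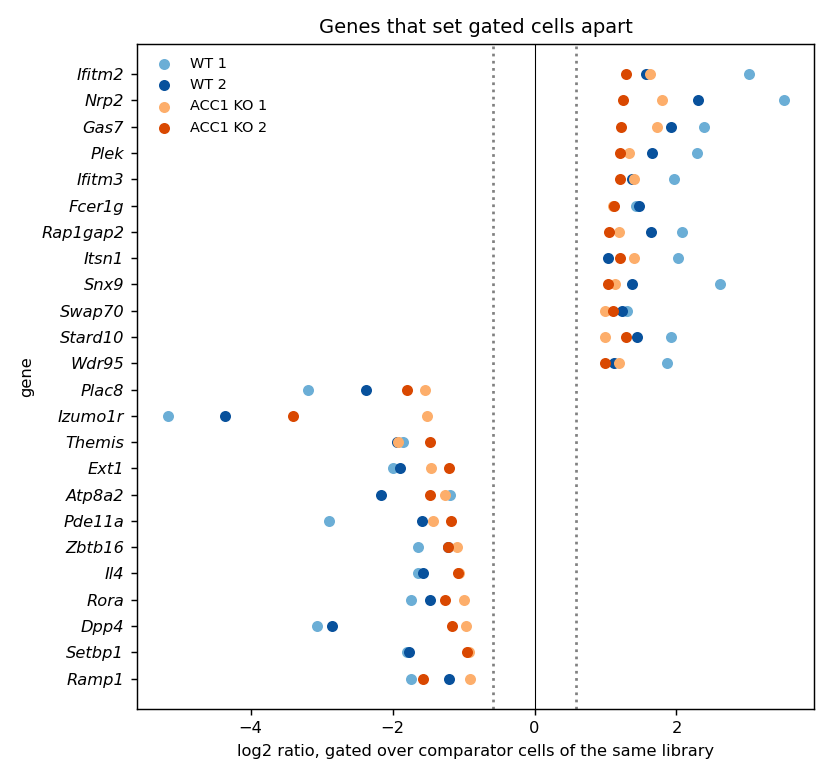
Log2 ratio of CPM in members over comparator cells of the same library for the 12 genes per direction with the largest smallest difference, 1 point per library, with dotted lines at 1.5-fold. Izumo1r and Nrp2 spread widely, and Swap70 (mean 1.16) and Zbtb16 (mean -1.29) hardly at all.

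Among 10 CD94, NKG2 and NK1.1 lectin receptor genes measured, 4 were higher in members (Klrb1b, Klre1, Klri2 and Klrc1) and none was lower, and their median log2 ratio was 0.66. Klre1, a lectin receptor that pairs with Klri chains, stood at 276, 232, 340 and 238 CPM against 130, 123, 186 and 128 CPM. Klri2 stood at 146, 62.0, 88.9 and 61.5 CPM against 41.6, 35.8, 31.1 and 20.9 CPM. None of 14 cytotoxic granule genes other than Gzma passed the rule, and their median log2 ratio was 0.10. Gzmb, the granzyme that cleaves caspases, stood at 501, 471, 740 and 669 CPM against 354, 235, 554 and 437 CPM, short of 1.5-fold in some libraries. Prf1, which encodes the pore former perforin, stood at 115, 92.1, 79.9 and 79.8 CPM against 55.0, 66.0, 46.7 and 45.5 CPM. Of 19 egress and homing genes 1 was higher, Itgae, the integrin chain that binds E-cadherin, at 370, 399, 195 and 339 CPM against 154, 252, 99.0 and 199 CPM. Its ligand gene Cdh1 was higher as well, at 141, 98.4, 29.1 and 53.8 CPM against 47.8, 61.4, 14.7 and 23.4 CPM. Of 18 Ifitm and interferon-induced genes 2 were higher, Ifitm2 and Ifitm3, and the median of the list was -0.10. The gate had left out cells with several interferon-induced genes.

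A limit of 1 Ly49 gene did not leave the members without Ly49. A single Ly49 gene was detected in 71.7, 84.8, 64.6 and 60.2% of them, mostly Klra9, found in 54.2, 71.0, 49.5 and 38.9%. After thinning to 2000 UMIs Klra9 was found in 46.7, 59.6, 42.9 and 29.1%. Klra9 reads may be shared with near-identical Ly49 genes, so the receptor behind them is uncertain. Since Klra9 is in the gate, no test of it is given.

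Within the members the level of Gzma itself varied widely, and cells were split after thinning into bands of 2 to 4, 5 to 9 and 10 or more UMIs of Gzma, below which lay a band of 0 or 1 UMI with 39, 148, 135 and 315 members. The bands are ranges and not cell types. From the band of 2 to 4 to that of 10 or more, Ifitm2 went from a mean of 497 to 1027 CPM, and Ifitm3 from 513 to 770 CPM, higher in 4 of 4 libraries for both. S1pr1, the receptor that leads cells out of the thymus, went from 23.4 to 45.8 CPM, higher in 4 of 4 libraries. It was scarce, and in WT 1 it stood at 39.5, 0 and 83.3 CPM through these bands, on 38, 25 and 18 cells. Its relative S1pr4 went from 69.9 to 51.5 CPM, lower in 3 libraries and higher in 1. Gzmb went from 556 to 735 CPM, Nkg7 (a granule membrane protein) from 1276 to 1590 CPM, Itgae from 292 to 362 CPM and Hopx from 306 to 394 CPM, each higher in 4 of 4 libraries. The band of 0 or 1 UMI lay below that of 2 to 4 for Ifitm2 (mean 333.5 CPM) and Ifitm3 (468.5 CPM). For S1pr1, Gzmb, Nkg7, Itgae and Hopx its mean was above that of 2 to 4, so these levels did not climb through all 4 bands. Klf2 stayed near 647 and 659 CPM, higher in 2 libraries and lower in 2. Abca1, which exports cholesterol, had means of 49.0, 75.8, 50.6 and 36.6 CPM from the lowest band to the highest, with no steady order. The high band held 18, 100, 51 and 178 cells, so WT 1 rests on few cells. No test was made, as Gzma chose the bands.

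Between genotypes 10 of 9907 genes passed the test in members, all higher in ACC1 KO (0.101%), and 6 of the 10 act in lipid synthesis, lipid activation, sterol sensing or sterol export. The test was edgeR's quasi-likelihood F test on the 4 sums, with Benjamini-Hochberg adjusted p under 0.05. It had no term for replicate number. With such a term 160 genes passed, 115 higher and 45 lower, so that all calls were higher holds only for some fits. With no filter on low counts 38 passed, 32 higher and 6 lower. DESeq2's Wald test called 6 genes, 5 of them among these 10. At an unadjusted p under 0.05 the edgeR test had 257 genes (2.59%). In 999 of the genes tested (10.1%) each ACC1 KO value exceeded each WT value, and in 1748 (17.6%) it lay under each.

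Scd2, which puts a double bond into stearoyl-CoA, stood at 30.8 and 18.4 CPM in the WT libraries and at 246 and 266 CPM in the ACC1 KO libraries. The genotypes did not overlap, and the log2 difference was 3.58 ± 0.25 (SE, edgeR adjusted p = 2.85e-05), with 2.97 within number 1 and 3.81 within number 2. Scd1, its close relative, lies beside it (chr19:44394455-44407879 against chr19:44293674-44306864 for Scd2, GRCm38). It had 1 and 0 UMIs in WT and 50 and 176 UMIs in ACC1 KO, an 88.3-fold higher share of UMIs with a 95% counting interval of 15.7 to 3501 (edgeR adjusted p = 0.00388). Acsl3, which activates long-chain fatty acids to acyl-CoA, stood at 4.86, 4.30, 22.9 and 27.4 CPM, 2.55 higher on the log2 scale. These levels rest on 3, 15, 56 and 221 UMIs, with a 95% counting interval of 3.73 to 10.3-fold. The call was lost with the gate on thinned cells and with the same number of cells. Srebf1, which encodes the SREBP1 factor of fatty acid synthesis, stood at 25.9, 20.6, 72.1 and 68.1 CPM, a log2 difference of 1.70 ± 0.23 (SE, edgeR adjusted p = 0.0105). All of these desaturase, activation and factor genes were at least 2 times as high in each ACC1 KO library as in either WT library.

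Sterol genes passed as well. Insig1, a membrane protein that holds SREBP in the endoplasmic reticulum when sterol is plentiful, stood at 6.49, 6.60, 25.0 and 25.8 CPM. Abca1 stood at 29.2, 23.8, 104 and 90.4 CPM, a log2 difference of 1.97 ± 0.22 (SE, edgeR adjusted p = 0.00322), and did not overlap. Its relative Abcg1, also a sterol exporter and LXR target, stood at 123, 90.6, 204 and 217 CPM and did not pass (edgeR adjusted p = 0.116).

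The remaining called genes are not lipid enzymes. Cd4, the co-receptor of MHC class II restricted T cells, stood at 4.86, 4.88, 30.7 and 24.4 CPM (3, 17, 75 and 197 UMIs). Itgb3, an integrin beta chain, stood at 6.49, 2.87, 25.4 and 19.0 CPM (4, 10, 62 and 153 UMIs). Arhgap21, a GTPase activating protein, had 2, 10, 48 and 132 UMIs. Ptpn5, a tyrosine phosphatase, stood at 19.4, 13.5, 50.0 and 42.6 CPM. In comparator cells Cd4 stood at 21.8, 19.4, 47.4 and 43.4 CPM and Itgb3 at 24.7, 21.4, 45.3 and 38.6 CPM, so both were scarcer in members than in comparator cells in each library. With the gate raised to 4 UMIs of Gzma and 10 of Ccl5, both still passed, with log2 differences of 2.38 for Cd4 and 2.55 for Itgb3 (edgeR adjusted p = 0.0103 and 0.0128). With the gate lowered to 1 UMI of Gzma and 3 of Ccl5, Cd4 passed at 2.66 (edgeR adjusted p = 0.00816), and Itgb3, at 2.04, did not (edgeR adjusted p = 0.137). Neither passed with the gate on thinned cells, at 1.91 for Cd4 and 3.43 for Itgb3 (edgeR adjusted p = 0.427 and 0.241).

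**Figure D4:**
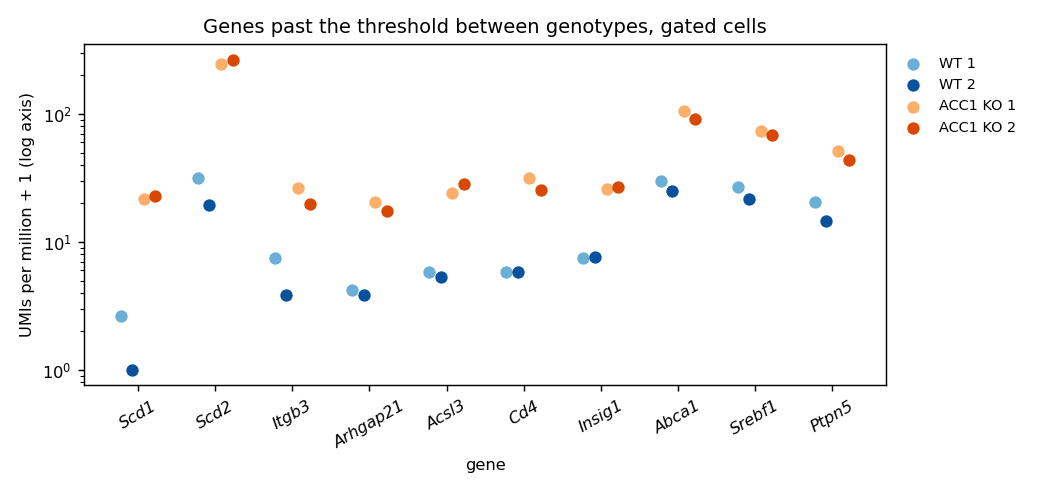
The 10 genes past the threshold between genotypes in members, as CPM plus 1 (log axis), 1 point per library. For each gene the orange points lie above the blue ones, with Scd2 at 246 and 266 against 30.8 and 18.4.

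The gene of granzyme A and 2 of the called sterol genes had a promoter in the RefSeq table for GRCm38.p6, as did 11 of the 16 genes looked up, and the 300 bases from 250 before to 50 after the start are given because these genes define or changed in the members. Each is written 5′ to 3′ on the gene's strand. Patterns of letters were sought on both strands, namely TCACNCCAC for the sterol regulatory element, a direct repeat of AGGTCA with 4 bases between its copies for LXR and TCACACCT for the T-box factors. The patterns do not overlap, and they occur in 1.24, 0.0152 and 1.28% of 32851 promoters of that length. None of the 11 genes' promoters held any of them, so nothing is in capitals, which says only that these letters are not in these windows. Sites that depart from these exact letters were not sought. The exact repeat is so rare, at 0.0152%, that a miss was likely beforehand.
Gzma, chr13:113100932-113101231, minus strand: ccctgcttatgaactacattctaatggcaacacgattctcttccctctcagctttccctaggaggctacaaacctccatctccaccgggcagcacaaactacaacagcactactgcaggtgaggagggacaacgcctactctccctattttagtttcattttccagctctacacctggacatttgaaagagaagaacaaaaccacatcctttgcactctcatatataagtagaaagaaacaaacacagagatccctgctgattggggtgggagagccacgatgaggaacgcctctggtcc
Abca1, chr4:53159846-53160145, minus strand: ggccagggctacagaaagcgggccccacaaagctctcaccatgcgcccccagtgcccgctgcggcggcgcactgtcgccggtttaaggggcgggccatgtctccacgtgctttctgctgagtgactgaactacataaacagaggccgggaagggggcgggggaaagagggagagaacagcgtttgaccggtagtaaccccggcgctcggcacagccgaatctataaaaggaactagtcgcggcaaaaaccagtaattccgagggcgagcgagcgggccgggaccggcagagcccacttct
Insig1, chr5:28071162-28071461, plus strand: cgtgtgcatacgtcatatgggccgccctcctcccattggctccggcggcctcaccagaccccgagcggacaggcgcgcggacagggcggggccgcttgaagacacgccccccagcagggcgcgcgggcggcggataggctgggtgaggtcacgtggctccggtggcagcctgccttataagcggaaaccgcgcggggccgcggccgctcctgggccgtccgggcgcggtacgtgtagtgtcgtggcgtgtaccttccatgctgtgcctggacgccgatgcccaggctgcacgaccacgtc

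The number of calls rested on single libraries. Without WT 1, 2 genes passed, Scd2 and Scd1, and without WT 2 only Scd2 did. Without ACC1 KO 1, 11 genes passed, 6 of them among the 10, and without ACC1 KO 2, 22 passed, 9 of them among the 10. Scd2 passed in 16 of 16 alternatives. With the gate applied to thinned cells 4 genes passed, 3 of them among the 10.

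Most genes of the 2 lipid synthesis lists had higher values in ACC1 KO, and few of them passed alone. Of 16 fatty acid synthesis and SREBP1 genes tested, 4 passed, all higher (Scd1, Scd2, Acsl3 and Srebf1). Without overlap, 11 were above WT and 1 was below, beside backgrounds of 10.1 and 17.6%, and the median log2 difference was 0.63 against -0.00092 over all genes tested. Fasn, the synthase that uses malonyl-CoA, and Fads1, a polyunsaturated fatty acid desaturase, are among the members drawn in the plot of both lists that did not pass. Of 21 cholesterol synthesis and SREBP2 genes tested, 1 passed, Insig1. In 16 both ACC1 KO libraries were above both WT libraries, in none were both below, and the median was 0.85. Cyp51, a demethylase of the sterol ring, stood at 19.4, 9.75, 31.1 and 29.1 CPM. Fdps, which makes farnesyl diphosphate, stood at 14.6, 21.5, 52.0 and 60.9 CPM and just missed the threshold (edgeR adjusted p = 0.0507). In comparator cells the medians of the same lists were 0.80 and 0.79. Of 8 sterol efflux and LXR genes tested, 1 passed, Abca1, with 4 above WT and none below, and the median was 0.12. Of 18 fatty acid oxidation genes none passed, with 1 above and 4 below, and the median was 0.0050.

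**Figure D5:**
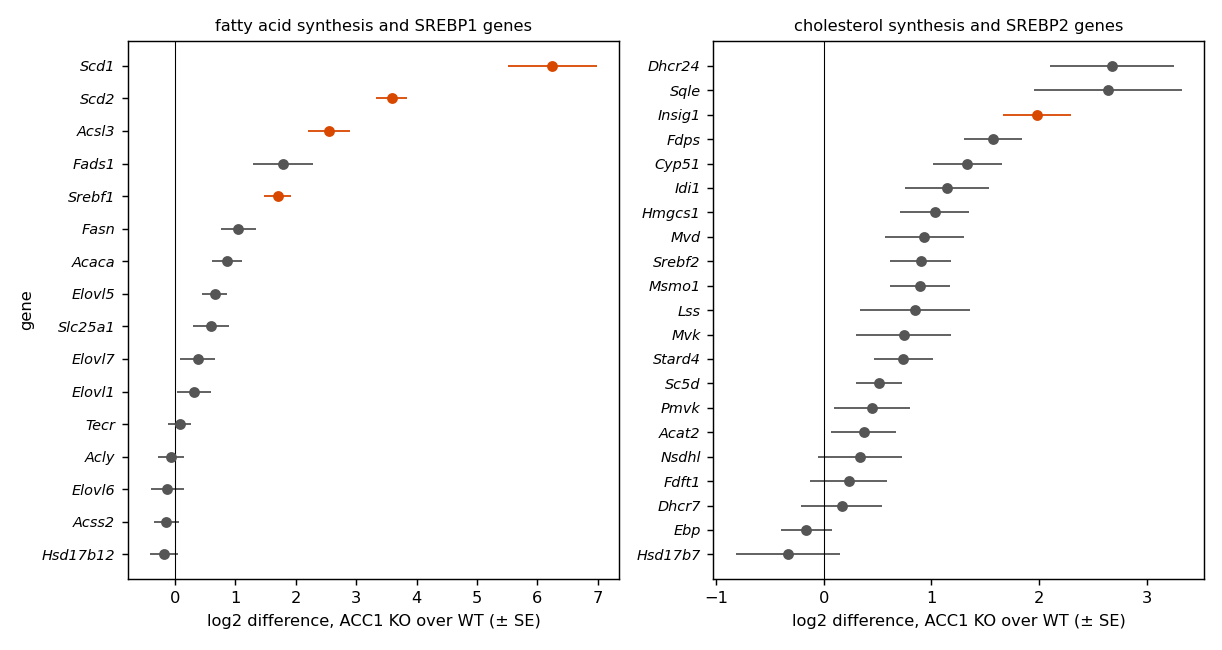
Log2 difference between ACC1 KO and WT in members, with SE, for the tested genes of the fatty acid list (left) and the cholesterol list (right), orange where the edgeR adjusted p passed the threshold. Most points lie above 0, with 11 of 16 and 16 of 21 genes free of overlap on that side.

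In the lists of cytotoxic granule, iNKT1 identity, egress and Ifitm genes none passed. Over all genes tested 0.101% did, so none passing is near that share and does not set these lists apart. On simulated counts the test recovered 25% of genes changed 2-fold, so changes of that size could be missed. Counts of the lists without overlap stand beside 10.1% above and 17.6% below over all genes tested. None of 14 cytotoxic granule genes passed, 2 lay above WT and 6 below without overlap, and the median log2 difference was -0.28. The 6 below are a larger share than over all genes tested. Gzmb was among the 2 above, at 501, 471, 740 and 669 CPM, and Prf1 among the 6 below, at 115, 92.1, 79.9 and 79.8 CPM. Of 15 iNKT1 identity genes none passed, with 1 above and 3 below, shares close to those over all genes. Among them Cd244a, an inhibitory or activating receptor of the SLAM family, had 25.9, 22.7, 9.01 and 9.55 CPM. With a term for replicate number Cd160 of this list passed, lower in ACC1 KO (edgeR adjusted p = 3.73e-05). Of 20 egress and homing genes none passed, with 2 above, near the share over all genes, and the median was -0.19. In 10 both ACC1 KO libraries were below both WT libraries, a larger share than over all genes tested. Of 8 iNKT2 genes Cd4 was the one that passed. Of 18 Ifitm and interferon-induced genes none passed, although 6 lay above WT and 1 below. Ifitm2 had a log2 difference of 1.07 ± 0.28 (SE, edgeR adjusted p = 0.621) and Ifitm3 stood at 336, 413, 657 and 683 CPM. Klf2, Klrc1 and Hopx overlapped between genotypes.

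No glycolysis gene (17 tested), pro-apoptotic gene (18) or anti-apoptotic gene (13) passed. Over all genes tested 0.101% did, and none passing is near that share. On simulated counts the test recovered 25% of genes changed 2-fold, so changes of that size could be missed. Without overlap, 2 glycolysis genes lay above WT and 3 below, 2 pro-apoptotic genes above and 1 below, and 3 anti-apoptotic genes above and none below. These counts stand beside 10.1% above and 17.6% below over all genes tested. Median log2 differences of the 3 lists were 0.086, 0.11 and 0.20. Bbc3, which encodes the death inducer PUMA, stood at 47.0, 33.8, 99.1 and 53.8 CPM, and Bcl2, the survival factor that BH3-only proteins oppose, at 786, 499, 1023 and 711 CPM. Both sets of values were higher in ACC1 KO within each number, and Bcl2 overlapped between genotypes. Heat shock genes, a sign of handling, had none of 10 without overlap, and the median over 13 mitochondrial transcripts was -0.33, 1 of them above WT and 2 below, close to the 10.1 and 17.6% over all genes tested.

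Some named genes had lower values in ACC1 KO without passing the test, which has no term for replicate number. With such a term Cdh1, Tcrg-C4, Tcrg-C2, Cd160 and Cirbp passed (edgeR adjusted p from 2.42e-12 to 0.000292). Cdh1, E-cadherin, had a log2 difference of -1.37 ± 0.30 (SE, edgeR adjusted p = 0.385), with -2.26 within number 1 and -0.86 within number 2. Tcrg-C4 and Tcrg-C2, constant segments of the gamma T cell receptor chain whose reads may be shared, stood at 105, 72.0, 44.6 and 43.4 CPM and at 128, 126, 84.0 and 53.6 CPM. Cd160, a receptor of the immunoglobulin family on cytotoxic lymphocytes, stood at 55.1, 56.2, 38.9 and 24.1 CPM. Cirbp, a cold-inducible RNA-binding protein, stood at 95.7, 96.1, 50.0 and 56.5 CPM. For each of these genes the ACC1 KO values were under the WT values, as for 17.6% of all genes tested.

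Whether the genotype difference in members differs from that in comparator cells was tested directly on 8 sums, with library, cell class and class by genotype as terms. Of 12302 genes 21 passed (0.171%), of which 20 are not gate genes, 13 with a larger and 7 with a smaller difference in members. With Gzma counted, 8 were smaller (0.065%), and 13 larger (0.106%). The gate genes shift with the choice of cells: Gzma is one of the 21, and 22.7, 35.9, 39.5 and 43.6% of comparator cells held 5 UMIs of Ccl5, more in both ACC1 KO libraries than in either WT library. Against comparator cells that also held 5 UMIs of Ccl5, 9 genes passed, 5 of them among the 21. Scd2 differed by 3.58 on the log2 scale in members and 2.83 in comparator cells, and the difference of 0.77 ± 0.17 (SE) had an edgeR adjusted p of 0.0131. It was 0.42 against comparator cells with Ccl5 (edgeR adjusted p = 0.995), and the call was lost in 7 of 15 alternatives. Itgb3 differed by 2.63 and 0.94 (edgeR adjusted p of the difference = 0.00993), which was lost in 6 of 15. Against comparator cells with Ccl5 its difference was 1.35 (edgeR adjusted p = 0.298). The Srebf1 differences were 1.70 and 1.67, which did not differ beyond their error (difference -0.04 ± 0.19).

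Genotype was compared in the other cells with the same test. In comparator cells 2 of 12586 genes passed (0.0159%), Scd2 and Scd1, both higher in ACC1 KO. In cells with 2 or more Ly49 genes 4 of 12731 passed (0.0314%), Scd1, Scd2, Acsl3 and Srebf1, all higher. Counts of calls in classes of different depth do not by themselves show a difference between the classes.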

How the data were processed

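The authors deposited UMI counts per barcode over 32285 genes. The submitters' processing notes name Cell Ranger 7.0.0 and mm10, and no source used here gives further steps. Quality filters, gate and comparator are as in the report. The cells and the 22 gene lists were chosen with earlier results of these data known, and a few list genes are not reported here. UMIs were summed per library and class, and cells were not treated as replicates. Genotypes were compared with edgeR 4.0.16 (glmQLFit robust, TMM, filterByExpr, no covariate) in R 4.3.3, adjusted over all genes tested. DESeq2 1.42.0 was an alternative. Standard errors follow from the log2 fold change and its F statistic. A prior count of 2 was added for log2 ratios taken within a library or within a number. Thinning drew 2000 UMIs per cell without replacement and left shallower cells out. Doublets were scored with scanpy 1.11.5 and kept, and removing 0.8% of cells per 1000 cells was an alternative. Called doublets made 2.50, 6.55, 6.08 and 7.11% of the members. A sum at 1 CPM rests on 0.617 to 8.07 UMIs, which limits low genes in WT 1 most.

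Genes are named by rules: the 6 markers; for genotype, up to 12 genes per direction that passed, had no overlap and averaged 20 CPM or more, and, as fewer than 8 met that, up to 10 per direction with the smallest p; up to 12 per direction against comparator cells; up to 5 per direction for the difference of differences; up to 4 per list. Called genes under 20 CPM come in by the list or difference rules, except Arhgap21, which is named for passing the test. Arhgap21 and genes named only for the bands of Gzma are outside the rules and were chosen after their values were seen. Sex-linked, ribosomal, mitochondrial and unnamed gene models were left out. Tested on simulated counts with 200 changed genes the genotype test recovered 90% of genes changed 4-fold and 25% of those changed 2-fold among 9907, with 14 false calls. For the class difference it was 82 and 47% among 12302, with 9 false calls. The simulated sums were drawn independently, with no shared deviation of same-numbered libraries, so rates in these data may differ.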

Additional observations from a re-analysis of the deposited data

Results flagged for a closer look

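The genotype difference differed between members and comparator cells by the class by genotype term for 10 genes named here, all with an edgeR adjusted p under the threshold. Larger in members were the differences of Ifitm1 (1.47 on the log2 scale), Nrgn (3.16), Itgb3 (1.69), Scd2 (0.77) and Tesc (1.06). With the gate on thinned cells the differences of Ifitm1 and Nrgn turned to -0.451 and -4.15. None of the 10 passed DESeq2's Wald test, and against comparator cells with Ccl5 only Ifitm1 (2.39) and Tesc (1.16) passed with edgeR. Tesc was lost in 9 of 15 alternatives. Ifitm1, an interferon-induced membrane protein, stood at 4.86, 26.4, 31.1 and 43.5 CPM in members and at 6.72, 8.02, 4.66 and 5.07 CPM in comparator cells, in the order WT 1, WT 2, ACC1 KO 1 and ACC1 KO 2. Nrgn, a calmodulin-binding protein, had 0, 3, 15 and 141 UMIs in members, a 20.3-fold higher share in ACC1 KO with a counting interval of 6.82 to 99.5, and 42, 184, 156 and 353 UMIs in comparator cells. Tesc, a calcium-binding protein, stood at 4.86, 14.6, 21.3 and 17.7 CPM in members and 44.5, 47.1, 35.3 and 30.3 CPM in comparator cells.

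Smaller in members, or opposite, were the differences of Slc9a7 (-0.72), Itgb1 (-0.41), Nrp2 (-1.29), Vim (-0.38) and Gas7 (-0.68). Slc9a7, a sodium and proton exchanger, stood at 55.1, 55.1, 38.9 and 66.2 CPM in members and 17.9, 23.5, 28.4 and 42.4 CPM in comparator cells. Itgb1, an integrin beta chain, stood at 371, 326, 304 and 261 CPM against 228, 217, 257 and 226 CPM. Vim, vimentin, stood at 524, 636, 508 and 601 CPM against 251, 365, 346 and 430 CPM.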

How the results depend on the processing

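Counts of genes called between genotypes in members were 38 with no filter on low counts, 6 with the looser gate, 6 with DESeq2's Wald test, 4 with the gate on thinned cells and 4 with the same number of cells, against 10. Leaving out 1 library gave 1 to 22. For the difference of differences, against 21, they were 43 with the looser gate, 9 with comparator cells holding Ccl5, 3 with the gate on thinned cells, 1 at a mean of at least 10 CPM and 1 with DESeq2's Wald test, and 8 to 31 without 1 library. With the gate on thinned cells the differences of Ifitm1 and Nrgn turned to -0.451 and -4.15 (edgeR adjusted p = 0.998 for both), and the cause was not tested. A replicate block gave 160 genotype calls, 115 higher and 45 lower, 10 of them shared, with Cdh1, Tcrg-C4, Tcrg-C2, Cd160 and Cirbp among the lower (edgeR adjusted p from 2.42e-12 to 0.000292), and 32 for the difference of differences. Same-numbered libraries deviated together (correlation 0.454 over 9907 genes), and the number goes with sex-linked transcripts, but with 2 pairs and no label behind the numbers the pairing was not assumed. Against comparator cells the count of 120 became 33 (comparator cells with Ccl5), 275 (all other cells within the limits) and 45 (2-fold), and 130 to 162 without 1 library, chosen after seeing the data. The share difference of 9.66 points kept its sign in every alternative run, 3.76 to 15.6 points without 1 library. WT 1, with 120 members, limits low genes most.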
